A study of Homo sapiens with 27 samples.

Results

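The genes described here are 9 members of the IL-6 cytokine family and its STAT3 axis, chosen by name as the rows whose Entrez ID maps to IL6, IL11, LIF, IL6R, IL6ST, OSMR, LIFR, STAT3 or SOCS3, out of 24566 rows in the count table. All 9 had a row and all 9 passed the filter on low counts in every comparison. RNA was sequenced from 27 libraries of A431, an established human line from an epidermoid carcinoma, and of MDA-MB-231, an established human line from a breast adenocarcinoma, in 9 groups of 3 replicates treated for 48 h. The A431 groups were untreated, vehicle control, Compound Kushen Injection (CKI, an extract of the roots Kushen and Baituling used in China as an adjunct to cancer treatment) at 1 mg/ml, doxorubicin (an anthracycline that poisons topoisomerase II), and CKI plus doxorubicin. MDA-MB-231 cells were left untreated or received the same dose of CKI, 5-fluorouracil (5-FU, a pyrimidine analogue) at 10 ug/ml, or both. The labels do not assign a single dose of doxorubicin and do not say what the vehicle was, and each line is a single tumour line grown without other cell types. The series calls the replicates biological, and nothing else states that they came from separate cultures, so the p-values measure the spread between these libraries.

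Cytokines of this family signal through receptor complexes that share the gp130 chain, which is encoded by IL6ST. IL-6 and IL-11 first bind a private receptor (IL6R or IL11RA) and then gp130, whereas LIF binds LIFR paired with gp130, and oncostatin M binds OSMR or LIFR paired with gp130. Receptor engagement activates JAK kinases, which phosphorylate STAT3, and STAT3 induces SOCS3, which binds gp130 and JAKs and shuts the signal off. In epithelial tumours the family is known for its links to inflammation, survival and senescence-associated secretion. STAT3 is controlled mainly by phosphorylation, which RNA counts do not measure.

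Total counts per library ranged from 17757206 to 21756536 in A431 and from 19871048 to 22809339 in MDA-MB-231, so that 3 counts corresponded to 0.133 to 0.186 CPM (counts scaled to library size). Untreated MDA-MB-231 replicate 1 stood apart from its 2 group mates, with a chi-square per degree of freedom over genes of 76.1 and 87.9 against them, compared to 2.76 between the other two, and with a Spearman's rho of -0.59 and -0.58 between its log2 difference from them and GC content across genes. Log2 fold changes of single members that turn on the untreated MDA-MB-231 cells are therefore mostly also given without that replicate. Group levels, ratios and medians are not. The A431 vehicle control libraries also differed among themselves more than other groups, at 11.7, 30.7 and 10.55 for their 3 pairs compared to 1.87 to 5.53 in the remaining pairs of both lines. The keratins KRT5 and KRT14, CDH1 and DSG3 averaged 62.0 CPM or more in every A431 group and 1.99 CPM or less in every MDA-MB-231 group. ZEB1 averaged 60.8 CPM or more in every MDA-MB-231 group and at most 0.743 CPM in A431. VIM averaged 724 CPM or more in the MDA-MB-231 groups and 2.91 to 35.0 CPM in A431, highest with doxorubicin. The lymphocyte marker CD3E averaged at most 0.265 CPM. AXL and FN1, listed as markers of MDA-MB-231, were also present in A431, where FN1 reached 1095 CPM. The monocyte marker CD14 had 3.78 to 13.9 CPM in all groups and the leukocyte marker PTPRC reached 1.60 CPM in A431 with CKI plus doxorubicin. Their part in the results below was not tested.

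The promoters of the IL6 and IL11 ligand genes are shown because the comparisons below turn on the changes of these ligands. The sequences run 5′ to 3′ from 250 bases before to 50 bases after the transcription start in RefSeq GRCh38.p14. IL6 covers chr7:22726950-22727249 on the forward strand and IL11 covers chr19:55370414-55370713 on the reverse strand. Capitals mark matches to the motifs searched on both strands, which for IL6 is the NF-kappa-B consensus at -73 to -64 and for IL11 the AP-1 letters at -96 to -90.
IL6: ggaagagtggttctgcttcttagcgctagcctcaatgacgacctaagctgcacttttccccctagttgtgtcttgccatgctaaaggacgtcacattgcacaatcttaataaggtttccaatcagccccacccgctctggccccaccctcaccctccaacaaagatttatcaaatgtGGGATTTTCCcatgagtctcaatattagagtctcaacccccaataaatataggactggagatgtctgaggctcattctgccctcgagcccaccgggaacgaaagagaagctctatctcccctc
IL11: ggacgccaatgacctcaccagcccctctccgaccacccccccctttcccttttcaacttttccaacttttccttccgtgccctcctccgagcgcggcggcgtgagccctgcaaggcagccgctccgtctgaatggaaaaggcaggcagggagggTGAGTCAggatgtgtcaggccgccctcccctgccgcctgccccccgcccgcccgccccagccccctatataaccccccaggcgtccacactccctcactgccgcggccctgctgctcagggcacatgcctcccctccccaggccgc
The motifs were STAT (TTCNNNGAA), AP-1 (TGANTCA), CRE (TGACGTCA), the AhR core (TNGCGTG) and the NF-kappa-B consensus, none of which overlapped another in these windows. Of 35116 promoters of the same length, 7.66% held the STAT letters, 7.71% AP-1, 1.85% CRE, 5.51% the AhR core and 5.91% the NF-kappa-B consensus. Neither printed window holds the STAT letters. The table held promoters for 8 of the 9 members, and LIF is named only. A match describes the letters and shows no binding.

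The first comparison was between the untreated cells of the lines. Untreated MDA-MB-231 cells had more IL6, IL11, IL6ST and LIFR than untreated A431 cells, and A431 cells had more IL6R. On the scale of CPM per kilobase of canonical transcript, which allows genes to be set side by side, the order in untreated A431 was STAT3 (30.2 ± 1.09, SD, n = 3), LIF (26.8 ± 1.92), OSMR (17.8 ± 0.823), SOCS3 (13.6 ± 1.76), IL6ST (7.32 ± 0.379), IL11 (4.10 ± 0.214), IL6R (2.48 ± 0.0968), IL6 (1.56 ± 0.397) and LIFR (0.945 ± 0.0353). STAT3 and LIF therefore led in these cells and the ligand IL6 was near the bottom. In untreated MDA-MB-231 the same scale gave IL6 at 93.25 ± 8.87, STAT3 at 34.6 ± 3.86, IL6ST at 33.4 ± 3.80, OSMR at 27.5 ± 1.62, IL11 at 24.5 ± 2.77, LIF at 22.7 ± 4.07, SOCS3 at 19.55 ± 2.77, LIFR at 5.47 ± 0.406 and IL6R at 0.0615 ± 0.0231. IL6 led there, and IL6R was the lowest of the 9 with 5, 11 and 6 counts in the 3 libraries. Neighbours such as STAT3 and IL6ST, or IL11 and LIF, differed by less than their SD. The scale takes the length of the canonical transcript of each gene, and which transcripts these cells used was not tested.

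**Figure D1:**
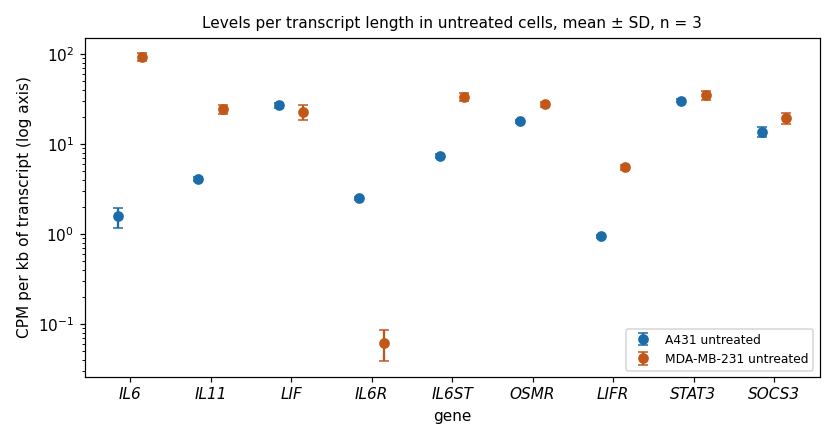
Levels of the 9 members in untreated cells as CPM per kilobase of canonical transcript on a log axis (points are means of 3 libraries, bars SD, blue A431 and orange MDA-MB-231). IL6 is at 1.56 in A431 and 93.25 in MDA-MB-231, while IL6R is at 2.48 and 0.0615, and LIF and STAT3 lie close together in both lines.

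A gene was called differentially expressed (DE), and is said to have risen or fallen, when edgeR's quasi-likelihood test gave a Benjamini-Hochberg adjusted p under 0.05 over all genes tested and the absolute log2 fold change was over 1. Of the 9 members, 1 was higher and 4 were lower in untreated A431 compared to untreated MDA-MB-231, while 42.9% of all genes tested were DE between the lines (22.5% higher and 20.4% lower) and 78.6% passed the adjusted p. IL6 was 57.4-fold lower in A431 (log2 fold change -5.84 ± 0.14 SE, adjusted p = 2.455e-13), IL11 5.76-fold lower (-2.53 ± 0.10, adjusted p = 3.01e-11), LIFR 5.59-fold lower (-2.48 ± 0.09, adjusted p = 1.06e-11) and IL6ST 4.41-fold lower (-2.14 ± 0.09, adjusted p = 7.69e-11). IL6R was 40.6-fold higher in A431 (5.34 ± 0.19, adjusted p = 1.475e-11). LIF (0.29), OSMR (-0.58) and SOCS3 (-0.48) passed the adjusted p alone. The LIF value was 0.15 (adjusted p = 0.326) without untreated A431 replicate 1 and did not pass under most alternatives. With vehicle control in place of untreated A431, however, LIF was 1.45 (adjusted p = 5.45e-08), past both thresholds. With that reference SOCS3 was 0.65 (adjusted p = 0.000124), its sign reversed, and OSMR was -0.14 (adjusted p = 0.154). STAT3 differed by -0.14 with a 95% interval of -0.30 to 0.01 on the log2 scale. Without replicate 1 of untreated MDA-MB-231 the log2 values were -5.91 for IL6, -2.61 for IL11, 5.18 for IL6R, -2.04 for IL6ST, -2.42 for LIFR, 0.16 for LIF, -0.53 for OSMR, -0.59 for SOCS3 and -0.22 for STAT3 (adjusted p = 0.000388). In these bulk cultures, fewer cells that express a gene and less RNA per cell cannot be told apart.

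IL6, the founding cytokine of the family, spans chr7:22765503-22771621 in GRCh37 (plus strand, 5 exons). It was nearly silent in A431 cells without doxorubicin, with 2.27, 1.59 and 1.42 CPM in untreated cells, 2.31, 2.79 and 2.73 in vehicle control and 1.325, 1.63 and 1.18 with CKI. With doxorubicin it stood at 89.45, 91.2 and 93.05 CPM, and with CKI plus doxorubicin at 34.65, 35.7 and 33.55. The doxorubicin libraries lay far above all others of the line, the combination libraries lay between, and neither range touched another group. In MDA-MB-231 cells IL6 had 93.9, 113 and 108 CPM when untreated, 64.4, 62.5 and 64.0 with CKI, 193, 191 and 206 with 5-FU, and 83.5, 76.9 and 77.2 with CKI plus 5-FU. The 4 groups of that line did not overlap, with 5-FU highest and CKI lowest. For 5-FU on top of CKI the log2 fold change was 0.33 ± 0.07 SE (edgeR, adjusted p = 0.0039), below the fold threshold. Over the alternatives this value was as low as 0.11 and its adjusted p as high as 0.57.

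IL6 rose 50.65-fold with doxorubicin compared to untreated A431 (log2 5.66 ± 0.11 SE, adjusted p = 1.23e-21) and 26.4-fold when doxorubicin was added to CKI (4.72 ± 0.12, adjusted p = 1.79e-19). The untreated libraries held only 38, 29 and 23 counts, and the log2 change with doxorubicin was 5.08 with vehicle control in their place. CKI lowered IL6 2.60-fold on top of doxorubicin (-1.38 ± 0.07, adjusted p = 8.83e-14) and 2.48-fold on top of 5-FU in MDA-MB-231 (-1.31 ± 0.07, adjusted p = 8.80e-08). With CKI alone the log2 change was -0.44 in A431 (adjusted p = 0.0695) and -0.73 in MDA-MB-231 (adjusted p = 1.44e-05, or -0.81 without untreated replicate 1), and with 5-FU alone it was 0.90 (adjusted p = 7.65e-07, or 0.83 without that replicate). IL6 fell 2.03-fold with CKI compared to vehicle control (-1.02 ± 0.18, adjusted p = 2.36e-05), a value close to the fold threshold that was -0.99 and -0.92 without CKI replicate 1 or 3, -0.97 and -0.99 without vehicle control replicate 2 or 3, and -0.70 with offsets for GC content and length. The change with CKI in the presence of doxorubicin minus that in its absence was -0.94 ± 0.21 (adjusted p = 0.000598), and -1.15 and -1.03 without untreated replicate 1 or CKI replicate 3. With vehicle control in place of untreated cells it was -0.36 (adjusted p = 0.132). IL6 shares 428 exonic bases with the antisense gene IL6-AS1 and 46 with STEAP1B, and since the libraries are unstranded their reads cannot be told apart. IL6-AS1 averaged at most 0.532 CPM in any group and STEAP1B 6.17 to 9.015 CPM in the A431 groups.

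IL11, a cytokine linked to fibrosis and epithelial repair, spans chr19:55875750-55881831 in GRCh37 (minus strand, 5 exons), and no other annotated gene shares its exons. In A431 it had 10.3, 9.51 and 9.41 CPM in untreated cells, 10.3, 10.1 and 10.3 in vehicle control, 13.2, 12.05 and 11.1 with CKI, 6.56, 4.66 and 5.02 with doxorubicin, and 19.8, 18.6 and 20.85 with CKI plus doxorubicin. Doxorubicin thus gave the lowest libraries of the line and the combination the highest, with no overlap with any other group. In MDA-MB-231 it had 51.1, 64.05 and 59.55 CPM in untreated cells, 240.5, 255 and 239 with CKI, 310.4, 318 and 307.0 with 5-FU, and 275, 252 and 264 with the combination. All treated libraries lay above all untreated ones, and only CKI and CKI plus 5-FU overlapped.

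IL11 rose 4.175-fold with CKI in MDA-MB-231 (log2 2.06 ± 0.08 SE, adjusted p = 6.54e-09, or 1.98 without untreated replicate 1) and 5.35-fold with 5-FU (2.42 ± 0.08, adjusted p = 1.07e-09, or 2.33 without it). On top of 5-FU, CKI changed it by -0.24 ± 0.08 (adjusted p = 0.0183), below the fold threshold, and 5-FU on top of CKI by 0.12 ± 0.08 (adjusted p = 0.229, 95% interval -0.03 to 0.26). The change with CKI was therefore lower by 2.30 ± 0.11 on the log2 scale in the presence of 5-FU than in its absence (-2.30, adjusted p = 1.59e-07, or -2.22 without untreated replicate 1). In A431 the order was the other way round. CKI alone gave 0.23 ± 0.11 (adjusted p = 0.0712) and CKI on top of doxorubicin gave 1.88 ± 0.11 (3.69-fold, adjusted p = 1.00e-12), a difference of 1.66 ± 0.16 (adjusted p = 5.22e-09). Doxorubicin alone gave -0.87 ± 0.12 (adjusted p = 7.305e-07), and -1.04 without doxorubicin replicate 1, which had the highest value of its group. Between the lines it differed for CKI by -1.83 ± 0.13 (A431 minus MDA-MB-231, adjusted p = 2.565e-07, or -1.75 without untreated MDA-MB-231 replicate 1).

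LIF, a cytokine best known for holding stem cells in an undifferentiated state, spans chr22:30636442-30642748 in GRCh37 (minus strand, 3 exons). A431 cells had 111, 103 and 96.6 CPM when untreated, 226, 225 and 238 in vehicle control, 262, 308 and 285 with CKI, 264, 274 and 252 with doxorubicin, and 338, 330.0 and 323 with CKI plus doxorubicin. Untreated cells stood below all other groups of the line, the vehicle control included. In MDA-MB-231 LIF had 70.0, 93.9 and 99.7 CPM in untreated cells, 97.8, 101 and 97.65 with CKI, 102, 98.0 and 96.3 with 5-FU, and 135, 127 and 129.8 with CKI plus 5-FU. The combination lay above the other 3 groups of that line, which overlapped one another.

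LIF rose 2.23-fold in vehicle control compared to untreated A431 (log2 1.16 ± 0.06 SE, adjusted p = 2.56e-12), 2.58-fold with CKI (1.37 ± 0.06, adjusted p = 7.88e-15) and 2.49-fold with doxorubicin (1.32 ± 0.06, adjusted p = 9.66e-15). Compared to vehicle control, CKI gave 0.21 ± 0.06 (adjusted p = 0.00477, or 0.06 with adjusted p = 0.293 under offsets for GC content and length) and doxorubicin 0.16 ± 0.06 (adjusted p = 0.0196). Whether the drugs were dissolved in the vehicle is not stated, so vehicle and drug cannot be told apart in the comparisons with untreated cells. The change with CKI was lower by 1.02 on the log2 scale with doxorubicin than without it (-1.02 ± 0.09, adjusted p = 1.26e-09), but with vehicle control in place of untreated cells this value was 0.14 (adjusted p = 0.167), and it was -0.97, -0.95 and -0.99 without untreated replicate 3, CKI replicate 2 or doxorubicin replicate 2. In MDA-MB-231 the log2 values were 0.16 with CKI (adjusted p = 0.249, 95% interval -0.04 to 0.36), 0.17 with 5-FU (adjusted p = 0.176), which were 0.02 and 0.03 without untreated replicate 1. The log2 values of the combination were 0.40 with CKI on top of 5-FU (adjusted p = 0.00586) and 0.41 with 5-FU on top of CKI (adjusted p = 0.00696). For LIF the change with CKI was 1.21 ± 0.15 higher in A431 than in MDA-MB-231 (adjusted p = 2.80e-05, or 1.34 without untreated MDA-MB-231 replicate 1), and 0.05 with vehicle control as the A431 reference. LIF shares 83 exonic bases with the antisense gene LIF-AS2, which averaged 3.64 to 7.94 CPM in A431 and at most 0.860 CPM in MDA-MB-231. It also shares 86 with the antisense gene LIF-AS1, which has no row in the count table.

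**Figure D2:**
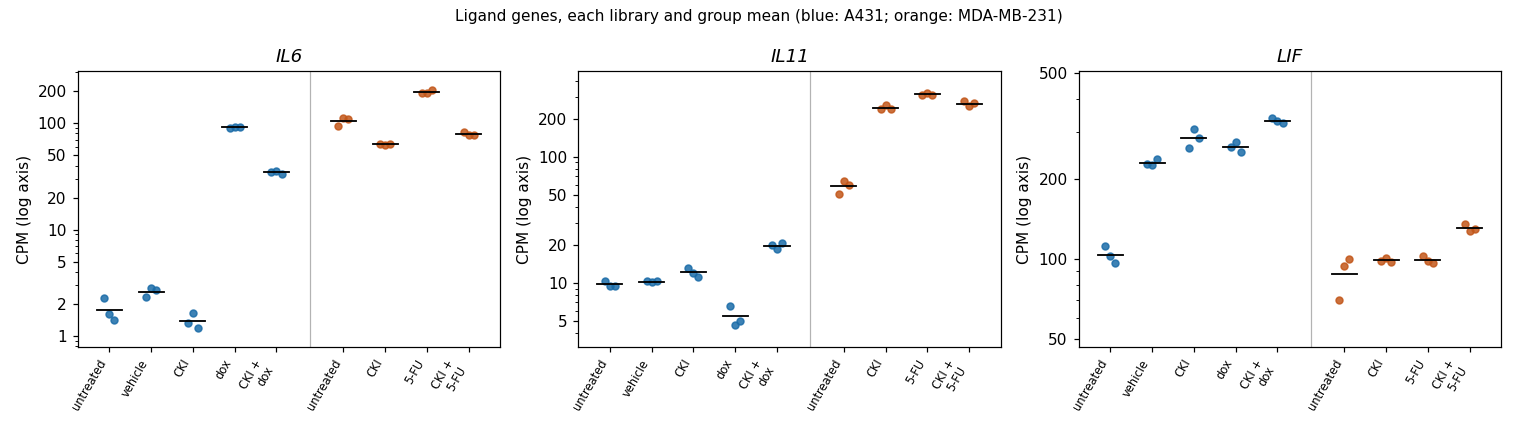
CPM of the ligand genes IL6, IL11 and LIF in each library (points) with group means (lines) on a log axis, A431 in blue and MDA-MB-231 in orange (dox is doxorubicin). IL6 in A431 is high only in the 2 doxorubicin groups (means 91.2 and 34.6 CPM), IL11 in MDA-MB-231 is high in all 3 treated groups (245 to 312 CPM), and LIF in A431 is above the untreated level in the vehicle control too.

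IL6R encodes the private receptor chain that captures IL-6, and spans chr1:154377669-154441926 in GRCh37 (plus strand, 10 exons). In A431 it had 14.3, 13.7 and 14.85 CPM in untreated cells, 11.0, 10.65 and 9.43 in vehicle control, 16.8, 17.6 and 18.9 with CKI, 11.1, 9.87 and 10.8 with doxorubicin, and 27.9, 24.0 and 27 with the combination, which was the highest group. In MDA-MB-231 it rested on few reads, with 5, 11 and 6 counts in untreated cells, 12, 20 and 19 with CKI, 90, 87 and 55 with 5-FU, and 16, 21 and 23 with CKI plus 5-FU. The 5-FU libraries lay above all others of the line, and those of CKI and of the combination overlapped.

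IL6R rose 2.52-fold with CKI on top of doxorubicin (log2 1.33 ± 0.09 SE, adjusted p = 7.70e-12). CKI alone gave 0.22 ± 0.09 compared to untreated A431 (adjusted p = 0.0346), and 0.02 (adjusted p = 0.865) with offsets for GC content and length. Compared to vehicle control CKI gave 0.67 ± 0.09 (adjusted p = 9.21e-07), so the size of this change depended on the reference. Vehicle control itself was -0.45 ± 0.10 against untreated cells (adjusted p = 0.000618). The change with CKI was 1.11 ± 0.12 higher with doxorubicin than without it (adjusted p = 8.31e-08), or 0.66 with vehicle control in place of untreated cells. In MDA-MB-231 it rose 9.99-fold with 5-FU (3.32 ± 0.30, adjusted p = 1.98e-06, or 3.15 without untreated replicate 1) and fell 3.90-fold when CKI was added to 5-FU (-1.96 ± 0.25, adjusted p = 4.68e-05). It rose 2.29-fold with CKI alone (1.19 ± 0.38, adjusted p = 0.0273), a call that was lost without untreated replicate 3 (1.07, adjusted p = 0.0755), CKI replicate 2 (1.11, adjusted p = 0.0813) or CKI replicate 3 (1.09, adjusted p = 0.0833) and stood at 1.03 (adjusted p = 0.0498) without untreated replicate 1. The change with CKI was lower by 3.16 ± 0.45 with 5-FU than without it (-3.16, adjusted p = 0.000359, or -2.99 without untreated replicate 1). Between the lines the change with CKI differed by -0.97 ± 0.31 (adjusted p = 0.0209), and by -1.01, -1.32 and -1.15 without A431 CKI replicate 3, untreated MDA-MB-231 replicate 2 or MDA-MB-231 CKI replicate 1. Without untreated MDA-MB-231 replicate 1 it was -0.81 (adjusted p = 0.0747), and with vehicle control as the A431 reference -0.51 (adjusted p = 0.252).

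IL6ST encodes gp130, the signalling chain shared by the family, and spans chr5:55230923-55290850 in GRCh37 (minus strand, 17 exons). A431 had 63.0, 65.6 and 69.7 CPM in untreated cells, 99.0, 96.1 and 81.0 in vehicle control, 90.03, 86.4 and 91.8 with CKI, 78.7, 82.05 and 74.8 with doxorubicin, and 148, 145 and 146 with CKI plus doxorubicin. MDA-MB-231 had 341, 283 and 281 CPM in untreated cells, 261, 256 and 263 with CKI, 343, 337 and 357 with 5-FU, and 393, 422 and 377 with CKI plus 5-FU. The combination gave the highest libraries in both lines, with no overlap with the other groups. No treatment comparison of IL6ST passed both thresholds. The largest was CKI on top of doxorubicin at 0.92 ± 0.07 on the log2 scale (adjusted p = 7.81e-11), compared to 0.34 ± 0.07 for CKI alone (adjusted p = 0.000153), a difference of 0.58 ± 0.10 (adjusted p = 2.62e-05) that was 1.06 against vehicle control. With offsets for GC content and length, CKI compared to untreated A431 stood at -0.10. Vehicle control alone was 0.49 ± 0.07 above untreated A431 (adjusted p = 1.36e-05), and CKI was -0.14 ± 0.07 against vehicle control (adjusted p = 0.0722). In MDA-MB-231, CKI gave -0.22 ± 0.08 (adjusted p = 0.0378, or -0.13 without untreated replicate 1) and 5-FU on top of CKI 0.62 ± 0.08 (adjusted p = 9.10e-05, or 0.38 with those offsets). The IL6ST value for CKI alone there did not pass without any 1 of the CKI replicates. IL6ST shares 797 exonic bases with an antisense noncoding gene that has no row in the count table, so its level is not known.

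OSMR encodes the oncostatin M receptor chain, and spans chr5:38845960-38945698 in GRCh37 (plus strand, 18 exons). A431 had 94.9, 96.2 and 103 CPM in untreated cells, 143, 139.6 and 113 in vehicle control, 247, 243 and 245 with CKI, 49.4, 46.4 and 48.7 with doxorubicin, and 117, 112 and 112 with the combination. CKI gave the highest libraries and doxorubicin the lowest, and the combination lay close to the untreated and vehicle levels. OSMR rose 2.34-fold with CKI (log2 1.23 ± 0.07 SE, adjusted p = 4.645e-13), and 2.40-fold with CKI on top of doxorubicin (1.26 ± 0.07, adjusted p = 1.25e-12). The difference between these changes was 0.03 ± 0.10 (adjusted p = 0.81, 95% interval -0.17 to 0.23). It ranged from -0.04 to 0.47 over the alternatives, with its sign reversed by RLE factors. The 0.47 was with vehicle control in place of untreated cells, and there it passed the adjusted p (0.000372). OSMR fell 2.08-fold with doxorubicin (-1.05 ± 0.07, adjusted p = 1.04e-11) and 2.03-fold when doxorubicin was added to CKI (-1.02 ± 0.07, adjusted p = 1.35e-11). Both values were -0.97 with RLE factors, DESeq2's median-of-ratios scaling, and missed the fold threshold. The rise with CKI also missed it with offsets for GC content and length, at 0.975. Compared to vehicle control the change with CKI was 0.79 ± 0.07 (adjusted p = 9.155e-10).

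In MDA-MB-231 OSMR had 162, 144.5 and 149.6 CPM in untreated cells, 157, 155 and 157 with CKI, 100.4, 99.2 and 98.3 with 5-FU and 137, 145 and 135 with the combination. The 5-FU libraries were the lowest and did not overlap the rest. The log2 change was 0.03 ± 0.06 with CKI (adjusted p = 0.708, 95% interval -0.08 to 0.14, or 0.08 without untreated replicate 1), -0.61 ± 0.06 with 5-FU (adjusted p = 2.65e-06, or -0.57 without untreated replicate 1) and 0.48 ± 0.06 with CKI on top of 5-FU (adjusted p = 2.77e-05). The A431 change with CKI was 1.205 ± 0.10 higher than in MDA-MB-231 (adjusted p = 5.925e-07, or 1.15 without untreated MDA-MB-231 replicate 1). It was 0.88 with offsets for GC content and length and 0.77 against vehicle control. OSMR shares 229 exonic bases with RICTOR on the opposite strand, and RICTOR averaged 36.7 CPM in untreated A431 and 84.6 CPM with CKI. How many of these reads belong to OSMR cannot be told apart in unstranded libraries.

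LIFR encodes the LIF receptor chain, and spans chr5:38474770-38608456 in GRCh37 (minus strand, 20 exons). In A431 it was low, with 9.56, 10.3 and 10.1 CPM in untreated cells, 15.4, 13.6 and 12.3 in vehicle control, 16.5, 15.3 and 15.1 with CKI, 8.17, 7.44 and 7.285 with doxorubicin, and 15.1, 16.5 and 15.45 with CKI plus doxorubicin. Doxorubicin gave the lowest group, and CKI with and without doxorubicin overlapped. LIFR rose 2.08-fold with CKI on top of doxorubicin (log2 1.06 ± 0.10 SE, adjusted p = 2.595e-09), or 0.77 with offsets for GC content and length, which is under the fold threshold. In MDA-MB-231 it had 62.55, 56.45 and 54.3 CPM in untreated cells, 55.9, 55.8 and 53.7 with CKI, 53.8, 50.5 and 53.0 with 5-FU and 68.5, 72.3 and 69.7 with the combination. No comparison of LIFR within MDA-MB-231 passed both thresholds, and the largest difference between 2 groups was 0.42 ± 0.06 for CKI on top of 5-FU (adjusted p = 0.000185). LIFR shares 629 exonic bases with LIFR-AS1, which averaged at most 1.41 CPM.

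STAT3, the transcription factor at the end of the pathway, spans chr17:40465342-40540558 in GRCh37 (minus strand, 24 exons). A431 had 146, 145 and 155 CPM in untreated cells, 147, 164 and 159.7 in vehicle control, 223, 220.2 and 231 with CKI, 255, 261 and 258 with doxorubicin, and 317, 290.1 and 298 with CKI plus doxorubicin. Untreated and vehicle libraries overlapped, and CKI, doxorubicin and the combination each lay higher without overlap. The log2 changes were 0.50 ± 0.06 with CKI (adjusted p = 2.83e-08), 0.77 ± 0.06 with doxorubicin (adjusted p = 1.62e-11), 0.25 ± 0.05 with CKI on top of doxorubicin (adjusted p = 0.000421) and 0.51 ± 0.05 with doxorubicin on top of CKI (adjusted p = 2.22e-08), each under the fold threshold. In MDA-MB-231 the library values ran from 149.5 to 206 CPM over all groups, and the largest difference between 2 groups was -0.20 ± 0.07 for 5-FU on top of CKI (adjusted p = 0.0473, or adjusted p = 0.16 without CKI replicate 3). For STAT3 the change with CKI on top of 5-FU minus that with CKI alone was -0.31 ± 0.11 (adjusted p = 0.0408). It was -0.23 (adjusted p = 0.00457) without untreated replicate 1 and -0.27 (adjusted p = 0.1004) without CKI replicate 3.

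SOCS3, the feedback inhibitor that STAT3 induces, spans chr17:76352859-76356158 in GRCh37 (minus strand, 2 exons). A431 had 40.7, 31.6 and 38.8 CPM in untreated cells, 73.55, 82.1 and 86.0 in vehicle control, 56.3, 71.4 and 65.2 with CKI, 33.6, 30.6 and 34.8 with doxorubicin, and 53.15, 46.8 and 51.8 with CKI plus doxorubicin. The vehicle control was the highest group and did not overlap CKI, while untreated and doxorubicin libraries overlapped. SOCS3 rose 2.19-fold in vehicle control compared to untreated cells (log2 1.13 ± 0.09 SE, adjusted p = 4.03e-09). With CKI it was 0.70 ± 0.09 above untreated (adjusted p = 4.69e-07) and -0.43 ± 0.09 against vehicle control (adjusted p = 0.000184), so its direction depended on the reference. With doxorubicin the values were -0.19 ± 0.10 against untreated (adjusted p = 0.0682) and -1.33 against vehicle control (adjusted p = 7.54e-12). CKI on top of doxorubicin gave 0.64 ± 0.09 (adjusted p = 2.88e-06).

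In MDA-MB-231 SOCS3 had 44.85, 56.3 and 59.2 CPM in untreated cells, 40.3, 45.4 and 42.9 with CKI, 33.6, 33.7 and 33.4 with 5-FU and 29.7, 30.9 and 33.2 with CKI plus 5-FU. The groups with 5-FU lay below those without it. The log2 change was -0.67 ± 0.10 with 5-FU (adjusted p = 8.32e-05, or -0.78 without untreated replicate 1), -0.33 ± 0.09 with CKI (adjusted p = 0.018, or -0.44 without it) and -0.45 ± 0.10 with 5-FU on top of CKI (adjusted p = 0.0033, or -0.18 with offsets for GC content and length). In A431 the change with CKI was 1.04 ± 0.17 higher than in MDA-MB-231 (adjusted p = 0.000236, or 1.14 without untreated MDA-MB-231 replicate 1). This was -0.10 with vehicle control as the A431 reference, and 0.96, 0.96 and 0.99 without A431 CKI replicate 2, untreated MDA-MB-231 replicate 3 or MDA-MB-231 CKI replicate 1.

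**Figure D3:**
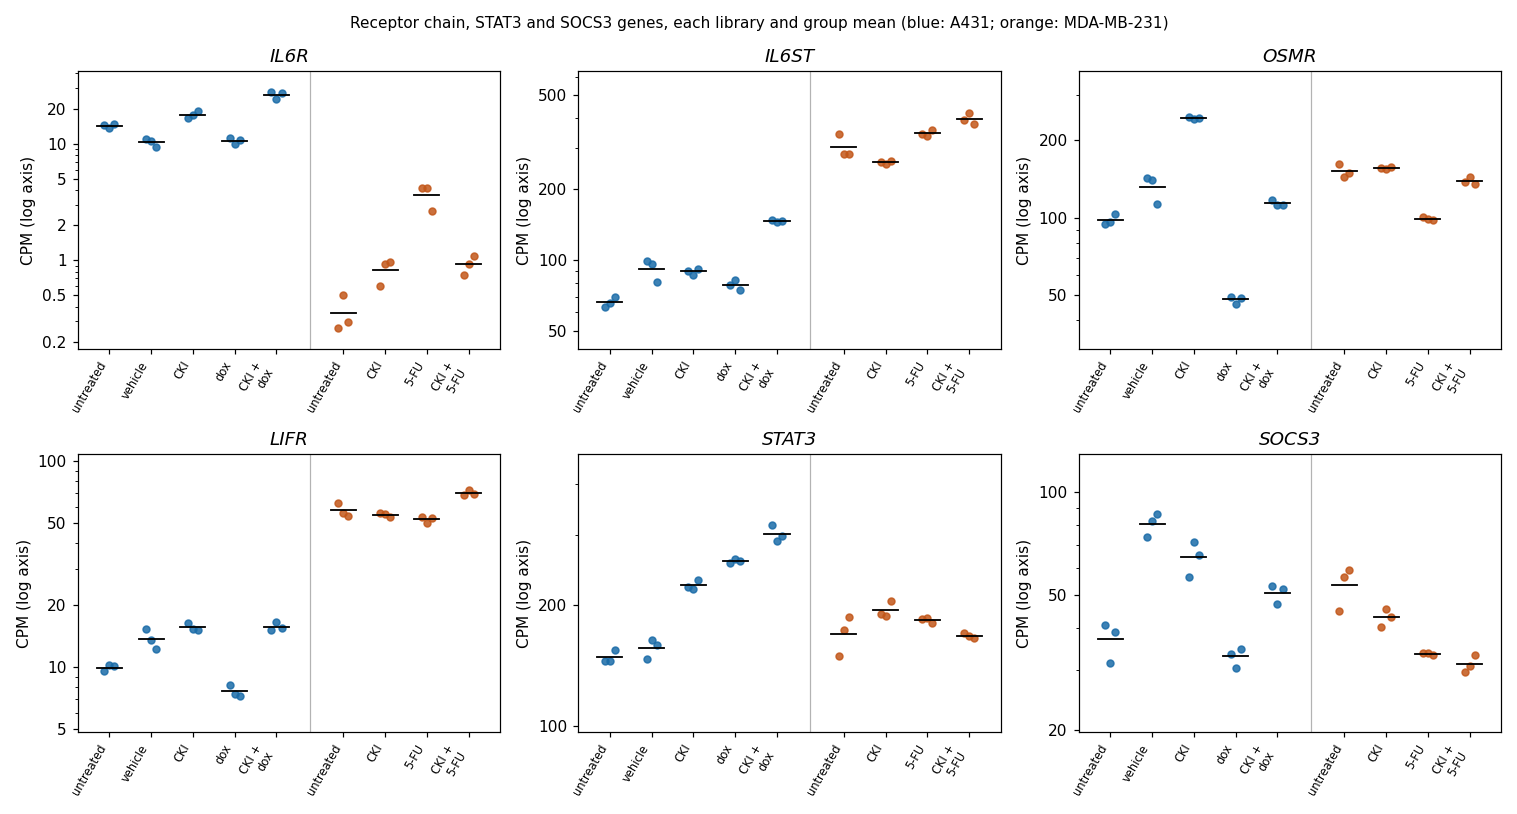
CPM of IL6R, IL6ST, OSMR, LIFR, STAT3 and SOCS3 in each library (points) with group means (lines) on log axes, A431 in blue and MDA-MB-231 in orange (dox is doxorubicin). OSMR in A431 is highest with CKI (245 CPM) and lowest with doxorubicin (48.2 CPM), IL6R in MDA-MB-231 is highest with 5-FU (3.64 CPM), and SOCS3 in A431 is highest in the vehicle control (80.6 CPM).

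Counted by comparison, the vehicle control of A431 had 2 of 9 members higher and 0 lower than untreated cells (LIF and SOCS3), where 2.54% of all genes tested were DE (1.05% higher and 1.5% lower), and 5 more members passed the adjusted p alone, which 42.5% of genes passed with the DE genes counted. The fold changes of this comparison were related to GC content across genes (Spearman's rho -0.58) and to transcript length (0.31), and the part of either in the calls was not tested. Over the alternatives run, LIF ranged from 1.12 to 1.31 and SOCS3 from 1.03 to 1.43. Of 52 other genes of the pathway list (further ligands, receptors, JAKs, STATs, inhibitors, receptor sheddases and reported STAT3 targets), 43 were tested, 1 was higher and 2 were lower, with a median log2 fold change of 0.04 compared to 0.00 over all genes. The survival gene MCL1 was higher at 1.23. The inhibitor SOCS1 (-1.04) and the IL-27 subunit EBI3 (-1.01) were lower, and these calls were lost with offsets for GC content and length, and also without untreated replicate 1 or 3, or vehicle control replicate 1, for SOCS1, and without any untreated replicate or vehicle control replicate 2 or 3 for EBI3.

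With CKI compared to untreated A431, 2 of 9 members were higher (LIF and OSMR) and 0 lower, where 22.4% of all genes were DE (12% higher and 10.4% lower) and 67% passed the adjusted p, as did 5 more members, and the median of the members was 0.50 compared to 0.00 over all genes. Compared to vehicle control, 0 members were higher and 1 was lower (IL6), where 19.5% of genes were DE (11.3% higher and 8.22% lower) and 65% passed the adjusted p, as did 5 more members. Of the 43 other pathway genes tested, 11 were higher and 2 lower than in untreated cells, with a median of 0.38, and 7 were higher and 1 lower than in vehicle control, with a median of 0.10. The adaptor GAB1 rose 4.08-fold (log2 2.03 ± 0.11 SE, adjusted p = 2.77e-13), from 5.97, 6.48 and 6.56 CPM in untreated cells to 27.9, 24.8 and 30.0 with CKI. The reported STAT3 target and mitotic survival gene BIRC5 fell 4.675-fold (-2.225 ± 0.08, adjusted p = 1.195e-16), and was also lower than in vehicle control (-2.06). The receptor IL11RA was higher than in vehicle control (1.84 ± 0.16, adjusted p = 7.48e-10), with 4.39, 2.84 and 4.14 CPM in vehicle control and 14.4, 14.5 and 14.5 with CKI. OSM and CNTFR also passed both thresholds in these comparisons, but with at most 0.662 and 0.102 CPM in any of the libraries compared. Compared to untreated cells the OSM call was lost without untreated replicate 3 or CKI replicate 1, and the CNTFR calls were lost under most alternatives, including without any 1 of the replicates compared.

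With doxorubicin compared to untreated A431, 2 members were higher (IL6 and LIF) and 1 lower (OSMR), where 37.3% of all genes were DE (23% higher and 14.3% lower), 80.6% passed the adjusted p, as did 5 more members, and the median was -0.19 for the members and 0.02 for all genes. Of the other 43 pathway genes, 8 were higher and 9 lower, with a median of -0.17. IL11RA, the private receptor of IL-11, rose 10.1-fold (3.34 ± 0.14, adjusted p = 7.51e-16), from 6.15, 5.61 and 3.53 CPM to 58.3, 49.6 and 50.7, while IL11 itself was at its lowest. OSM rose too, at no more than 0.685 CPM. CNTFR was listed at 0 in all untreated libraries and had 0.734, 0.893 and 1.16 CPM with doxorubicin. When doxorubicin was added to CKI, 1 member was higher (IL6) and 1 lower (OSMR), where 25.7% of genes were DE (16.6% higher and 9.06% lower) and 73.3% passed the adjusted p, as did 6 more members. Of the other pathway genes 3 were higher and 9 lower, with a median of -0.15 compared to 0.05 over all genes. The oncogene MYC fell by 2.29 ± 0.08 and the sheddase ADAM10 fell by 1.565 ± 0.06 on the log2 scale, while CNTFR passed at no more than 0.464 CPM.

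With CKI on top of doxorubicin, 4 of 9 members were higher (IL11, IL6R, OSMR and LIFR) and 1 was lower (IL6), where 14.9% of all genes were DE (6.89% higher and 8.03% lower). The other 4 members passed the adjusted p alone, which 63.6% of all genes did when the DE genes are counted too. The median was 0.92 for the members and 0.03 for all genes. Of the other 43 pathway genes, 4 were higher and 4 lower, with a median of 0.19. EBI3 rose 8.47-fold (3.08 ± 0.34, adjusted p = 5.89e-08), but the doxorubicin libraries held only 10, 5 and 1 counts of it, and the value was 2.61 without doxorubicin replicate 3 and 3.875 without doxorubicin replicate 1. The receptor IL31RA rose 7.23-fold (2.85 ± 0.18, adjusted p = 6.69e-12), while IL11RA fell 3.72-fold (-1.89 ± 0.12, adjusted p = 3.06e-12) and BIRC5 fell 3.30-fold (-1.72 ± 0.08, adjusted p = 4.77e-14). IL11 and its receptor gene IL11RA thus had opposite signs, as they did with doxorubicin alone.

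The change with CKI differed between A431 cells with and without doxorubicin past both thresholds in 3 members, higher in IL11 and IL6R and lower in LIF, where 19.5% of all genes passed (8.56% higher and 10.9% lower) and 57.4% passed the adjusted p, as did 4 more members. Of the other pathway genes 5 were higher and 11 lower, with a median of -0.04 compared to 0.03 for the members and 0.04 over all genes. They included IL11RA (-3.30 ± 0.19, adjusted p = 2.85e-12) and EBI3 (3.46 ± 0.50, adjusted p = 2.95e-06), and OSM and CNTFR at the low levels given above. This comparison uses the untreated, CKI, doxorubicin and combination libraries that also enter the separate changes, so the separate values are not independent of it.

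**Figure D4:**
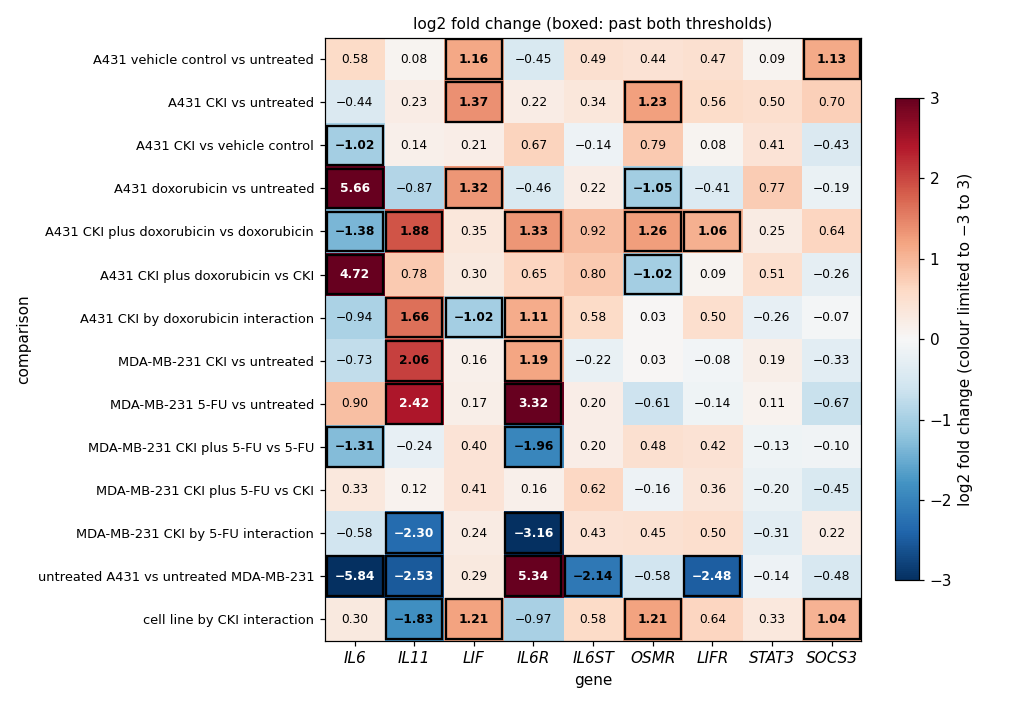
Log2 fold change of the 9 members (columns) in the 14 comparisons (rows), coloured from blue (lower in the group named first) to red (higher), with black boxes where both thresholds were passed. IL6 has its largest positive values with doxorubicin (5.66 and 4.72), STAT3 has no box, and the row of CKI plus 5-FU compared to CKI has none.

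In MDA-MB-231, CKI compared to untreated gave 2 members higher (IL11 and IL6R) and 0 lower, where 5.96% of all genes were DE (3.76% higher and 2.21% lower, with 36.2% past the adjusted p), and 5-FU gave the same members higher and 0 lower, where 13.3% were DE (6.01% higher and 7.31% lower, with 57.1% past the adjusted p). With CKI 3 more members and with 5-FU 4 more passed the adjusted p alone. The median of the members was 0.03 with CKI and 0.17 with 5-FU, compared to -0.01 and -0.00 over all genes. These comparisons share the untreated libraries. Of 41 other pathway genes tested, 0 were higher and 2 lower with CKI, with a median of -0.14, and 1 was higher and 2 were lower with 5-FU, with a median of -0.06. STAT5A fell 2.30-fold with CKI (-1.20 ± 0.14, adjusted p = 5.52e-05), from 19.4, 28.1 and 28.2 CPM to 11.4, 10.5 and 11.35, and EBI3 fell by 1.09 ± 0.23, a call that was lost without untreated replicate 2 or CKI replicate 3 (-0.88 at the smallest). With 5-FU, EBI3 rose (1.25 ± 0.18), cardiotrophin CTF1 fell (-1.16 ± 0.15) and ADAM10 fell (-1.06 ± 0.08, and -0.96 without untreated replicate 1).

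With CKI on top of 5-FU, 0 members were higher and 2 were lower (IL6 and IL6R), where 9.77% of all genes were DE (5.26% higher and 4.51% lower) and 50.4% passed the adjusted p, as did 5 more members, and the median was -0.10 compared to 0.01. The RNA of the IL-6 ligand and of its private receptor thus both fell, while that of gp130 (IL6ST) was 0.20 ± 0.08 higher (adjusted p = 0.0425) without reaching the fold threshold. Over the alternatives the IL6ST value was as low as 0.06 and its adjusted p as high as 0.178. Of the other 41 pathway genes 1 was higher and 3 lower, with a median of -0.03, led by EBI3 (-2.16 ± 0.20, adjusted p = 4.07e-06), the inhibitor CISH (-1.42 ± 0.27), STAT5A (-1.32 ± 0.14) and IL31RA (1.15 ± 0.06). With 5-FU on top of CKI, 0 of 9 members passed both thresholds, where 3.81% of all genes did (1.26% higher and 2.54% lower), and 7 members passed the adjusted p alone, which 42.1% of genes did with the DE genes counted. DESeq2 also called 0 of 9 there. In the pathway list 0 were higher and 1 was lower, the phosphatase PTPN6 at -1.13 ± 0.28, which was lost with offsets for GC content and length and without CKI replicate 1, and the median was -0.07 compared to 0.01. The fold changes of this comparison were related to GC content across genes (Spearman's rho -0.52).

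With and without 5-FU, the change with CKI differed past both thresholds in 2 members, both lower (IL11 and IL6R), where 6.84% of all genes passed (3.04% higher and 3.81% lower) and 31.4% passed the adjusted p, as did 5 more members, and in the pathway list in VEGFA (1.09 ± 0.12) and EBI3 (-1.06 ± 0.31). EBI3 averaged few reads, and its call was lost with offsets for GC content and length and without untreated replicate 1, CKI replicate 1 or 2, or CKI plus 5-FU replicate 1. The median was 0.22 for the members and -0.04 for the list, compared to 0.02 over all genes. For both genes the libraries of the combination overlapped those of CKI alone. The signs were not alike across the lines, since the same difference was 1.66 for IL11 and 1.11 for IL6R in A431 with doxorubicin, a different drug, and a test between the drugs was not made.

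**Figure D5:**
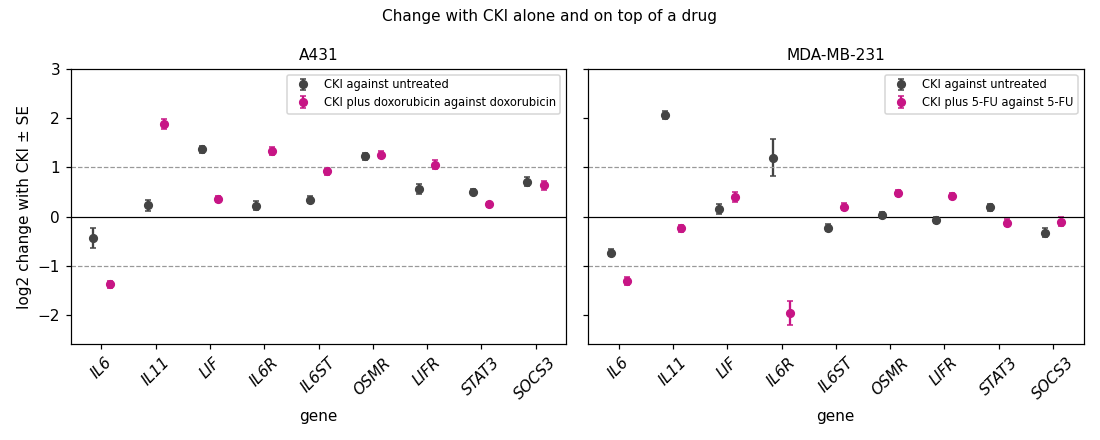
Log2 change of each member with CKI against untreated cells (dark grey) and with CKI on top of a drug against that drug (magenta), with SE bars and dashed lines at the fold threshold, for A431 with doxorubicin on the left and MDA-MB-231 with 5-FU on the right. IL6 lies below 0 in all 4 contrasts (-0.44, -1.38, -0.73 and -1.31), while IL11 is high only with doxorubicin in A431 (1.88) and only without 5-FU in MDA-MB-231 (2.06).

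The cell lines differed in their change with CKI past both thresholds in 4 members, higher in LIF, OSMR and SOCS3 and lower in IL11, where 18.5% of all genes passed (8.87% higher and 9.62% lower) and 47% passed the adjusted p, as did 4 more members, and the median was 0.58 for the members and -0.01 for all genes. With vehicle control in place of untreated A431, 1 of 9 passed. Of 40 other pathway genes tested 10 were higher and 2 lower, with a median of 0.35. GAB1 (2.195 ± 0.19, adjusted p = 9.94e-07), MCL1 (2.13 ± 0.09, adjusted p = 4.08e-09, and 0.89 against vehicle control), JAK2 (1.81 ± 0.21, adjusted p = 1.235e-05) and BIRC5 (-1.89 ± 0.17, adjusted p = 1.185e-06) had the largest differences. In the untreated lines 4 of the 40 were higher and 7 lower in A431, with a median of -0.12 compared to 0.09 over all genes. They were led by PTPN6 (3.65), IL31RA (-3.33), CTF1 (-2.84) and SOCS2 (-2.62).

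The balance of ligands and receptors per transcript length moved accordingly. The ratio of IL6 to IL11 averaged 0.379 in untreated A431, 0.240 with CKI, 36.4 with doxorubicin (28.8 to 41.3 in the 3 libraries) and 3.715 with CKI plus doxorubicin (3.395 to 4.06). The libraries with doxorubicin thus lay above all others. In MDA-MB-231 it averaged 3.81 in untreated cells (3.72 to 3.88), 0.549 with CKI (0.517 to 0.565), 1.33 with 5-FU and 0.634 with CKI plus 5-FU, so that every treated group lay below untreated. The ratio of IL6ST to IL6R averaged 2.95 in untreated A431 and between 3.22 and 5.66 in the other A431 groups. In MDA-MB-231 it averaged 600 in untreated cells (357 to 835), 208.5 with CKI, 63.9 with 5-FU and 280 with the combination. The MDA-MB-231 values carry the counting error of the few IL6R reads. The ratio of OSMR to LIFR averaged 18.8 in untreated A431, 30.0 with CKI, 12.1 with doxorubicin and 13.9 with the combination, compared to 3.62 to 5.42 in the MDA-MB-231 groups.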

How the data were processed

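The authors trimmed paired-end, unstranded reads of total RNA with Trim Galore 0.3.7 and aligned them to hg19 with STAR 2.5.3a, per the submitters' processing notes, and deposited raw read counts per gene for each library. The counting tool and the annotation are not given in the sources used here. A symbol was found for 24422 of the 24566 Entrez IDs in the RefSeq table of GRCh38.p14 (names only). Positions, transcript lengths, exon overlaps and GC content came from GENCODE on GRCh37 and were found for 99.5% of rows.

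Counts were tested with edgeR 4.0.16 in R 4.3.3 (TMM, filterByExpr, glmQLFit, glmQLFTest) with all groups of a line in the fit, and comparisons between lines used the 12 libraries that were untreated or had CKI. An adjusted p under 0.05 with an absolute log2 fold change over 1 made a call, and SE is the log2 fold change divided by the root of F. Intervals are 95% (1.96 SE). CPM used TMM over 27 libraries, and floors of 3 counts cover counting error only. The fits were tested on simulated data. The 9 members and the pathway list were chosen with earlier results of these data known. Genes named from the list were, in each comparison, at most 4 of those past both thresholds with the largest absolute log2 fold change, and 3 genes most like each of IL6, IL11, LIF and SOCS3 were named by Pearson's r. Alternatives were RLE factors, DESeq2 1.42.0, no filter, at least 10 counts in every library, the compared groups alone, the replicate number as a block, offsets for GC content and length (lowess span 0.3) alone and with the block, vehicle control as the A431 reference, library size alone for levels, and leaving out each replicate. PECAM1, a listed marker, was not analysed here, and some genes that the naming rules or lists hold are not reported here.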

Additional observations from a re-analysis of the deposited data

Results flagged for a closer look

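These 9 results are listed because the change with CKI differed between backgrounds or lines in an interaction term (edgeR, adjusted over all genes) and passed both thresholds. In A431 the change with CKI differed with and without doxorubicin by 1.66 ± 0.16 (SE) for IL11, -1.02 ± 0.09 for LIF and 1.11 ± 0.12 for IL6R on the log2 scale. In MDA-MB-231 it differed with and without 5-FU by -2.30 ± 0.11 for IL11 and -3.16 ± 0.45 for IL6R. Between the lines (A431 minus MDA-MB-231) it differed by -1.83 ± 0.13 for IL11, 1.21 ± 0.15 for LIF, 1.205 ± 0.10 for OSMR and 1.04 ± 0.17 for SOCS3. With vehicle control in place of untreated A431, the differences by doxorubicin were 0.14 for LIF (adjusted p = 0.167) and 0.66 for IL6R. Those between the lines were then 0.05 for LIF (adjusted p = 0.826), 0.77 for OSMR and -0.10 for SOCS3 (adjusted p = 0.674). None of these passed both thresholds, while the IL11 values did so under every alternative. No test of single outlying values was run within the groups of 3 libraries.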

How the results depend on the processing

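Of 126 member values, 35 passed both thresholds, and 23 of these did so under every alternative run. Of the other 91, 84 passed under no alternative. The sign reversed in these cases, for which the cause was not tested. With offsets for GC content and length, alone and with the replicate block, STAT3 in vehicle control compared to untreated A431 was -0.00144 and -0.001482, IL6ST with CKI in A431 -0.1028 and -0.1029, and SOCS3 with CKI on top of 5-FU 0.01988 and 0.01889. With vehicle control in place of untreated A431, IL6ST with doxorubicin was -0.2666, the difference of the change with CKI by doxorubicin 0.1403 for LIF and 1.067 for SOCS3, SOCS3 between the lines 0.6549, and the difference of the change with CKI between the lines -0.278 for IL6 and -0.0952 for SOCS3. The difference by doxorubicin for OSMR was -0.003941 with RLE factors, -0.003899 with DESeq2 and -0.0445 with at least 10 counts in every library. Leaving out 1 replicate gave ranges of -0.009502 to 0.06761 for OSMR and -0.1526 to 0.04626 for SOCS3 by doxorubicin, with SOCS3 at 0.01959 without CKI replicate 2, -0.005839 to 0.07872 for OSMR with CKI in MDA-MB-231, and -0.01535 to 0.2924 for IL6R with 5-FU on top of CKI. The count of members called moved with CKI compared to untreated A431 from 2 to 1 (offsets, with and without the block), compared to vehicle control from 1 to 0 (RLE, DESeq2, at least 10 counts, offsets with and without the block, and 0 to 1 leaving out a replicate), and for doxorubicin on top of CKI from 2 to 1 (RLE, DESeq2, at least 10 counts, offsets with and without the block). In MDA-MB-231 it moved with CKI from 2 to 1 (at least 10 counts, compared groups alone, and 1 to 2 leaving out a replicate), and to 1 for 5-FU, CKI on top of 5-FU and the difference by 5-FU with at least 10 counts, since IL6R was then not tested. Between the lines the change with CKI moved from 4 to 1 with vehicle control. Smaller relative moves of the count also occurred. For doxorubicin compared to untreated A431 it went from 3 to 2 (RLE, DESeq2, at least 10 counts) and to 4 without doxorubicin replicate 1. For CKI on top of doxorubicin it went from 5 to 4 (offsets, with and without the block). For the difference by doxorubicin it went from 3 to 2 with no filter and to 4 with at least 10 counts, among others. Over all genes, requiring at least 10 counts, which tests fewer genes, lowered the calls from 404 to 174 (vehicle control compared to untreated), 3100 to 1989 (CKI compared to vehicle control), 5925 to 3197 (doxorubicin), 2369 to 1431 and 4077 to 1837 (combination compared to doxorubicin and to CKI), 835 to 504, 1368 to 903 and 533 to 340 (MDA-MB-231 with CKI, and the combination compared to 5-FU and to CKI) and 6367 to 3631 (lines). No filter raised 4077 to 6171, offsets lowered 404 calls to 243 (237 with the block) and 533 to 344 (339 with it), and the compared groups alone lowered 404 to 263. Smaller relative moves are not all listed, such as 3554 to 2469 with at least 10 counts (CKI compared to untreated A431) and 5925 to 8167 with no filter (doxorubicin). The replicate numbers did not pair the libraries (correlation of same-numbered deviations from -0.20 to 0.105), and the replicate block alone changed 0 member calls. For the 2 interactions with the lines or with 5-FU, the compared groups alone equal the whole fit and were not run again. Depth limits IL6R in MDA-MB-231 and IL6 in A431 without doxorubicin. With library size alone, 49 of the 81 group means of the members moved by more than 1 SD, at 0.905 to 1.127 times the TMM value. Some orders of groups then changed. In A431, LIF and IL6ST averaged 296.9 and 88.49 CPM with doxorubicin compared to 260.7 and 81.94 with CKI. SOCS3 averaged 37.15 CPM with doxorubicin compared to 33.54 in untreated cells.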

Other observations

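Among 16457 genes, those whose log2 group means over the 9 groups, centred within each line, were most like a member are given as a description, since the group means share libraries and depth. They included NPPC and MRPL33 for IL6 (Pearson's r 0.991 for each), XKRX (0.968), IL1RN (0.938) and SRPX2 (0.938) for IL11, UHMK1 (0.976), PDPK1 (0.965) and SLAIN2 (0.960) for LIF, and SPTLC2 (0.879), BHLHE40 (0.875) and LRP6 (0.875) for SOCS3. IL1RN encodes the antagonist of the interleukin-1 receptor. IL6 in A431 was high only with doxorubicin (91.2 CPM) or CKI plus doxorubicin (34.6 CPM), and these groups weigh heavily in its r. With doxorubicin 23% of all genes tested were higher compared to untreated A431, and shared regulation with IL6 was not tested.

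In the promoters of the other members, the AP-1 letters stood at 38 to 44 in IL6R and at 4 to 10 in OSMR, the STAT letters in 2 of the 3 listed starts of LIFR, and the AhR core in 1 of the 2 listed starts of SOCS3, at -98 to -92. The windows of IL6ST and STAT3 held none of the motifs searched.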
